A study of Mus musculus with 10 samples.

Results

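Genes that arm and mark natural killer (NK) cells and cytotoxic T cells were followed in whole mouse lung. The set held 10 genes, taken as every non-control probe whose gene name, or current symbol, was Gzma, Gzmb, Gzmk, Prf1, Nkg7, Ncr1, Klrb1c, Klrd1, Klrg1 or Eomes. They were read by 12 of 41174 probes on the array and made up 10 of 27670 genes. RNA came from p53-null mice, which lack the tumour suppressor encoded by Trp53, and from wild-type mice. All animals were C57BL/6J males aged 8 weeks that inhaled aerosolized saline for 30 min before the lung was frozen, and each genotype had 5 arrays with 1 RNA sample on each. The allele behind the null genotype was not given in the sources used here.

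NK cells and cytotoxic T lymphocytes kill infected or transformed cells by releasing granules toward them. Perforin opens the target membrane, and granzymes, a family of serine proteases, enter and start cell death. NK cells read their targets through paired activating and inhibitory receptors, many of them C-type lectins encoded in a single gene cluster, and the T-box factors Eomes and T-bet direct their development; in the lung they patrol the capillary bed and produce interferon-gamma early in infection.

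Values are log2 intensities with each array's 75th percentile set to 0, so a difference of 1 is a doubling. Differences were taken as p53-null minus wild type and carry the SE of the limma fit, n = 5 per genotype, and p-values are Benjamini-Hochberg adjusted over all 21122 genes tested. A gene was tested where any of its probes was well above background, on at least 5 of the 10 arrays. Its value came from its brightest probe on average, and it was called at an adjusted p under 0.05. The share of spots well above background was 71.4% to 84.0% over the arrays, and 5 arrays a genotype limit the precision. The p53-null arrays gave -3.15 to -2.66 for a Trp53 probe, against -1.67 to -1.43 on wild-type arrays 1 to 4 (limma, difference -1.28 ± 0.16, adjusted p = 0.00589 over 31587 probes). Wild-type array 5 stood apart at -2.22, between the genotypes, and also had the lowest 75th percentile of intensity, 2381 against 2799 to 4398 on the other 9 arrays. A second Trp53 probe did not fall: it read 0.13 to 0.65 on p53-null arrays, against -0.34 to 0.01 on wild-type arrays 1 to 4 and 1.24 on wild-type array 5 (limma, 0.31 ± 0.28, adjusted p = 0.504 over the same probes). Without wild-type array 5 the probes differed by -1.41 ± 0.11 and 0.59 ± 0.13 (limma adjusted p = 0.000355 and 0.0085), so they ran in opposite directions. For the NK and cytotoxic genes, and for the counts over gene lists, results without that array are given as well. The labelled tissue was plain in every sample: the club cell gene Scgb1a1 read 7.34 to 7.62 in p53-null lung and 7.07 to 7.78 in wild-type lung.

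Of the 10 genes, 9 were well above background on all 10 arrays and were tested, and Gzmk was near background. Perforin (Prf1, 0.83 ± 0.20) and the inhibitory receptor Klrg1 (0.75 ± 0.17) were higher in p53-null lung, the remaining 7 did not pass, and no gene was called lower. Among all genes tested, 7.47% were called in either direction and 4.58% were called higher. All 9 differences were positive, from 0.15 for Gzmb to 0.83 for Prf1, while 56.3% of all genes tested had a positive difference. The median was 0.62 for these genes, and 0.05 for all genes tested. In whole lung, more cells of a type and more RNA per cell cannot be told apart.

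**Figure D1:**
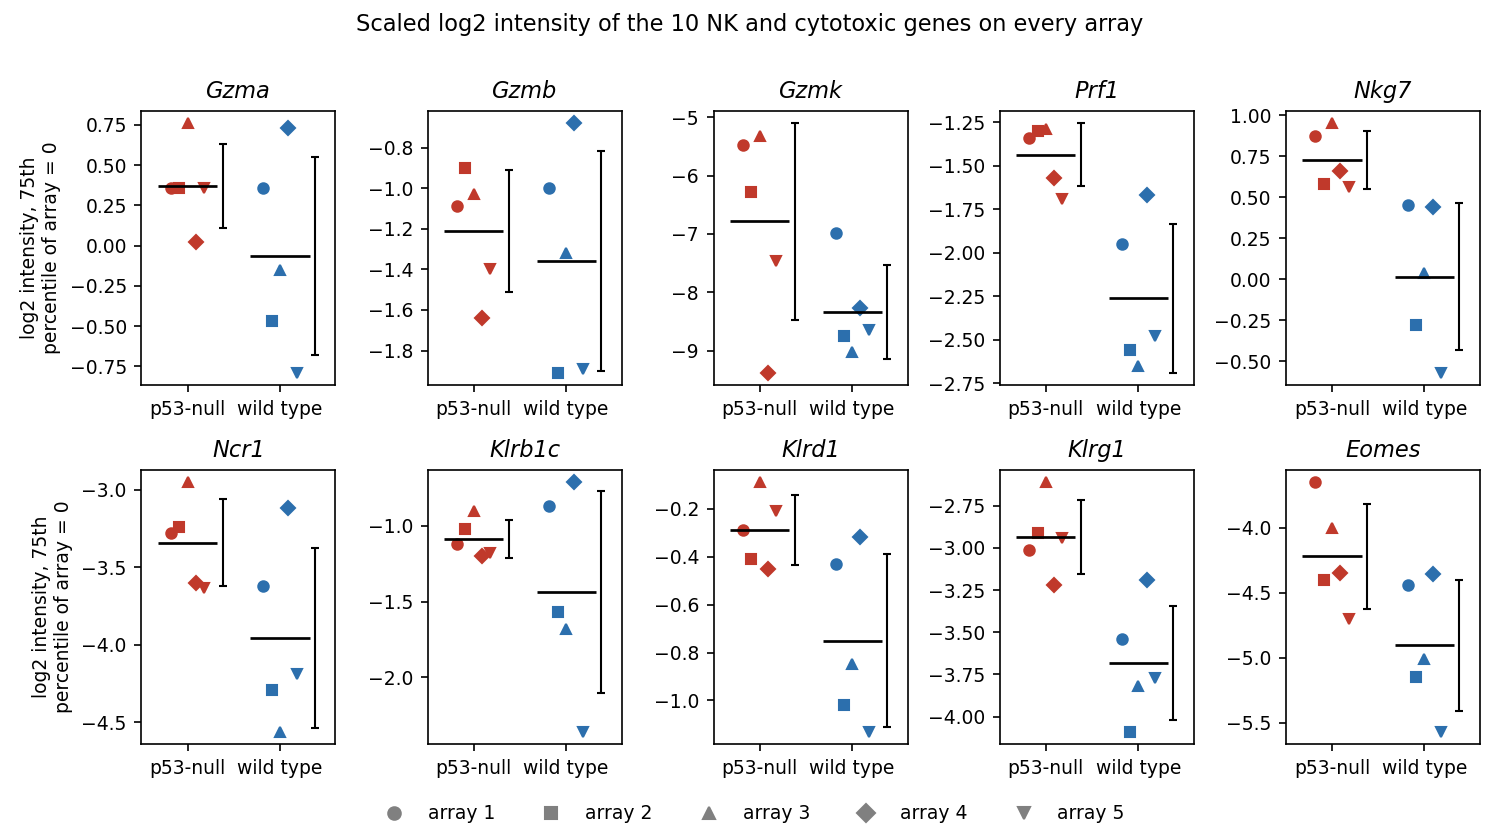
Scaled log2 intensity of each of the 10 genes on every array (vertical axes, each with its own range), p53-null left and wild type right, with the mean as a line, its SD as a bar and the array number as the marker shape. Nkg7 is the only panel in which the genotypes do not overlap, with p53-null arrays at 0.56 to 0.95 and wild-type arrays at -0.57 to 0.45, and wild-type arrays 1 and 4 are the highest wild-type arrays in all 10 panels.

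The sequences read by 3 granule gene probes and by the second Klrb1c probe are shown because the results below turn on them: Prf1 is the granule gene that passed, Gzma did not, Gzmk was near background, and the Klrb1c probes gave differences of unlike size. Coordinates and sequences are those of the deposited files.
Prf1 probe (chr10:60821367-60821426, mm7, plus strand): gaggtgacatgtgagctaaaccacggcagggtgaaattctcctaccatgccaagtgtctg
Gzma probe (chr13:110251676-110251735, mm7, minus strand): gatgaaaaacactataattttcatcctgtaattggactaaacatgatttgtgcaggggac
Gzmk probe (chr13:110327790-110327849, mm7, minus strand): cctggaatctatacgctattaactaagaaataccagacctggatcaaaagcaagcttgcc
Klrb1c probe (chr6:128807991-128808050, mm7, minus strand): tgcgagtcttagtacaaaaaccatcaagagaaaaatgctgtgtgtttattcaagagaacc

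Prf1 encodes perforin, the pore-forming protein of cytotoxic granules. Its p53-null arrays 1 to 5 read -1.34, -1.30, -1.29, -1.57 and -1.69, against -1.95, -2.56, -2.65, -1.67 and -2.48 on wild-type arrays 1 to 5. The p53-null arrays lay close together and all but array 5 were above every wild-type array, so the genotypes overlapped by wild-type array 4 alone. Means were -1.44 ± 0.183 in p53-null lung and -2.26 ± 0.427 in wild-type lung (SD, n = 5 each). Prf1 rose 1.77-fold (limma adjusted p = 0.0376, 95% interval of the log2 difference 0.39 to 1.26).

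Granzymes did not pass the test. Gzma, a tryptase abundant in resting mouse NK cells, was read at chr13:110251676-110251735 (mm7, minus strand). Its values were 0.36, 0.36, 0.76, 0.02 and 0.36 on p53-null arrays 1 to 5, against 0.36, -0.47, -0.15, 0.73 and -0.79 on wild-type arrays 1 to 5. Wild-type array 4 was near the highest p53-null array and wild-type array 5 was the lowest of all 10. The Gzma difference was 0.44 ± 0.27 (limma adjusted p = 0.33, 95% interval -0.17 to 1.05).

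Gzmb, the granzyme that cleaves and activates caspases, was read at chr14:51126432-51126491 (mm7, minus strand). Its values were -1.09, -0.90, -1.03, -1.64 and -1.40 on p53-null arrays 1 to 5, against -1.0, -1.91, -1.32, -0.68 and -1.89 on wild-type arrays 1 to 5. The genotypes were interleaved, with the highest value and the lowest both on wild-type arrays. The difference was 0.15 ± 0.26 (limma adjusted p = 0.753, 95% interval -0.43 to 0.72), the smallest of the 9 genes. Gzmb shares a gene cluster and much of its sequence with other mouse granzymes, and reads of a close copy by its probe were not analysed here.

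Perforin and granzyme B, which act together on the target cell, thus had differences of unlike size in the same samples. Within an array, Prf1 minus Gzmb was -0.25, -0.41, -0.26, 0.07 and -0.29 on p53-null arrays 1 to 5, against -0.95, -0.65, -1.33, -1.0 and -0.59 on wild-type arrays 1 to 5. All p53-null arrays were above all wild-type arrays. Of the 36 pairs of tested genes in the set, this was the only pair whose genotypes did not overlap, and Prf1 set against each other gene tested gave such a gap, higher in p53-null lung, in 28.4% of cases, so the gap is no mark of this pair.

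Gzmk, a granzyme known mainly from memory and effector T cells, stood well above background on 3 arrays, p53-null 1, 2 and 3, and on 0 of 5 in wild type, and was not tested. It read -5.47, -6.28, -5.33, -9.38 and -7.47 on p53-null arrays 1 to 5, against -6.98, -8.75, -9.02, -8.27 and -8.65 on wild-type arrays 1 to 5. The measured p53-null arrays were the highest 3 of the 10, while p53-null array 4 was the lowest. With dim wild-type values raised to a floor, the mean Gzmk signal of p53-null lung was 1.37-fold that of wild-type lung. The floor was the lowest signal well above background on that array, used where the Gzmk value was lower. The p53-null mean takes in arrays 4 and 5, which were not well above background. That ratio carries no error and was not tested. SDs of the 5 arrays were 1.68 in p53-null lung and 0.805 in wild-type lung. With no filter on dim probes the fitted difference of Gzmk was 1.55 ± 0.76 (limma adjusted p = 0.293).

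Nkg7, a granule membrane protein needed for efficient release, was read at chr7:39613682-39613741 (mm7, plus strand). It read 0.87, 0.58, 0.95, 0.66 and 0.56 on p53-null arrays 1 to 5, against 0.45, -0.28, 0.04, 0.44 and -0.57 on wild-type arrays 1 to 5. All p53-null arrays lay above all wild-type arrays, which among all genes tested was so for 5.44%. Its difference of 0.71 ± 0.20 missed the threshold (limma adjusted p = 0.0599). A second Nkg7 probe, at chr7:39613348-39613407 (mm7, plus strand), gave -0.43 to 0.22 on p53-null arrays and -1.52 to -0.44 on wild-type arrays, again with no overlap, and a difference of 0.78 ± 0.22 (limma adjusted p = 0.0551 over all probes tested).

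**Figure D2:**
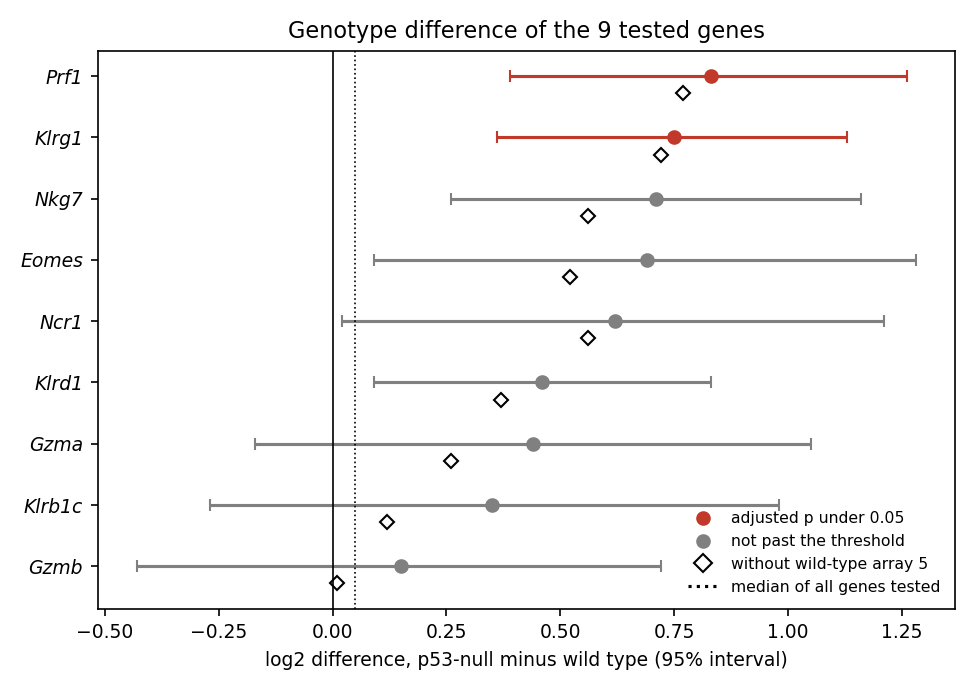
Difference in log2 intensity, p53-null minus wild type, of the 9 tested genes (horizontal axis) with its 95% interval, called genes in red, and the same difference without wild-type array 5 as open diamonds; the dotted line is the median of all genes tested, 0.05. Prf1 and Klrg1 lead at 0.83 and 0.75, the intervals of Gzma, Klrb1c and Gzmb reach below 0, and every diamond lies left of its filled point, down to 0.01 for Gzmb.

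Among the receptors only Klrg1 passed the test, and within an array the difference between any pair of the 4 receptors overlapped between genotypes. Klrg1, an inhibitory lectin-like receptor that binds cadherins and marks mature NK cells and terminal effector T cells, was read at chr6:122297046-122297105 (mm7, minus strand). Its values were -3.01, -2.91, -2.61, -3.22 and -2.94 on p53-null arrays 1 to 5, against -3.54, -4.09, -3.82, -3.19 and -3.77 on wild-type arrays 1 to 5. Wild-type array 4 stood just above the lowest p53-null array, and the other wild-type arrays were below all p53-null arrays. Klrg1 rose 1.68-fold, with means of -2.94 ± 0.221 in p53-null lung and -3.68 ± 0.34 in wild-type lung (SD, n = 5 each; limma adjusted p = 0.0349). The gene is also a marker of type 2 innate lymphoid cells; of 5 tested markers of those cells, Klrg1 was called higher, the growth factor gene Areg fell (-1.02 ± 0.20, limma adjusted p = 0.0245), and the others, none past the test, were Gata3 (0.70 ± 0.25), Il13 (1.0 ± 0.60) and the IL-33 receptor Il1rl1 (0.08 ± 0.073). Without wild-type array 5, Gata3 (0.89 ± 0.21) and Il13 (1.52 ± 0.42) were also called higher (limma adjusted p = 0.012 and 0.0248). On all arrays 4.58% of all genes tested were called higher and 7.47% in either direction. Without wild-type array 5, 17.1% of all genes tested were called higher.

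Ncr1 encodes NKp46, the activating receptor used to define NK cells in the mouse, and its probe lies at chr7:3902600-3902659 (mm7, plus strand). It read -3.28, -3.24, -2.95, -3.60 and -3.63 on p53-null arrays 1 to 5, against -3.62, -4.29, -4.56, -3.12 and -4.19 on wild-type arrays 1 to 5. Wild-type array 4 was above all p53-null arrays but array 3, and 3 wild-type arrays were below all of them. The Ncr1 difference was 0.62 ± 0.27 (limma adjusted p = 0.167).

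Klrb1c encodes NK1.1, the surface antigen by which NK cells of C57BL/6 mice are recognised. The probe taken for the gene, at chr6:128801824-128801883 (mm7, minus strand), read -1.12, -1.02, -0.90, -1.20 and -1.18 on p53-null arrays 1 to 5, against -0.87, -1.57, -1.68, -0.71 and -2.36 on wild-type arrays 1 to 5. Here wild-type arrays 1 and 4 were above every p53-null array and the other 3 below every one, and the difference was 0.35 ± 0.28 (limma adjusted p = 0.447). The second probe, whose sequence is given above, was dimmer, well above background on 5 p53-null and 3 wild-type arrays. It read -5.13 to -4.59 on p53-null arrays and -7.11 to -4.96 on wild-type arrays, a difference of 0.95 ± 0.38 (limma adjusted p = 0.137 over all probes tested). Klrb1c has close paralogs in its cluster, and how far either probe reads them was not analysed here.

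Klrd1 encodes CD94, the partner chain of the NKG2 receptors that read Qa-1 on target cells, and was read at chr6:129621685-129621744 (mm7, plus strand). It gave -0.29, -0.41, -0.09, -0.45 and -0.21 on p53-null arrays 1 to 5, against -0.43, -1.02, -0.85, -0.32 and -1.13 on wild-type arrays 1 to 5. Wild-type arrays 1 and 4 fell within the p53-null range and the other 3 below it, and the difference was 0.46 ± 0.17 (limma adjusted p = 0.109).

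Eomes, the T-box factor needed for conventional NK cells, was read at chr9:118163832-118163891 (mm7, plus strand). It gave -3.65, -4.40, -4.00, -4.35 and -4.70 on p53-null arrays 1 to 5, against -4.44, -5.15, -5.01, -4.36 and -5.57 on wild-type arrays 1 to 5. Again wild-type arrays 1 and 4 lay within the p53-null range and the other 3 below it. The Eomes difference was 0.69 ± 0.27 (limma adjusted p = 0.131).

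The genes shared their highest wild-type arrays, though not the full order. Wild-type arrays 1 and 4 were the highest of the wild-type group for 9 of 9 tested genes, a pattern found in 14.3% of all genes tested. Wild-type array 5 was the lowest for 5 of 9, against 28.9% of all genes tested. Spread was smaller in p53-null lung for all 9, with SDs of 0.123 to 0.401 there and 0.34 to 0.669 in wild-type lung, and the same direction was found in 76.4% of all genes tested. Averaged over the 9 genes after each was centred at 0, p53-null arrays 1 to 5 stood at 0.37, 0.30, 0.53, 0.06 and 0.12, against 0.10, -0.60, -0.45, 0.34 and -0.76 on wild-type arrays 1 to 5. Wild-type array 4 was thus above all but p53-null arrays 1 and 3. Wild-type arrays 1 and 4 also led in 9 of 9 genes with normexp background correction, quantile normalization, median scaling, probe means and the GC trend of probes removed. All of these reuse the same scanned signals. Arrays 1 and 4 also had the highest 75th percentiles of the wild-type group, 4175 and 4398 against 2381 to 3945. The part of that intensity in the pattern was not tested.

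Among p53-null arrays, array 4 or 5 was the lowest for 9 of 9 genes, against 33.9% of all genes tested. Skeletal muscle markers averaged 3.14 and 2.79 on those arrays and 3.96 on wild-type array 2, and between -1.99 and -1.03 on the other 7; their part in the order was not tested. Without those 3 arrays the 9 differences were 0.22 to 0.88, all positive, with 0 called by limma among them and 10 called in all (3480 genes at an unadjusted p under 0.05).

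Leaving out wild-type array 5 lowered every difference and yet added a call. Prf1 (0.77 ± 0.21, limma adjusted p = 0.0236), Klrg1 (0.72 ± 0.19, limma adjusted p = 0.02) and Nkg7 (0.56 ± 0.17, limma adjusted p = 0.0336) were called higher, while 17.1% of all genes tested were then called higher. Gzmb was then 0.01 ± 0.25 and Klrb1c 0.12 ± 0.21. The calls of Prf1 and Klrg1 held in 3 and 2 of 10 fits, each with 1 array removed. Prf1 lost its call without wild-type array 2 or 3 or any p53-null array, and Klrg1 also without wild-type array 1 (limma adjusted p up to 0.0953 and 0.0938). The slide that held both genotypes carried wild-type array 4 and p53-null array 2. With slide as a fixed block the fit uses that pair alone, and 0 of all genes tested were called by limma (1138 at an unadjusted p under 0.05), Prf1 and Klrg1 were 0.37 ± 0.28 and 0.28 ± 0.29, Nkg7 was 0.14 ± 0.30, and the other 6 turned negative.

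**Figure D3:**
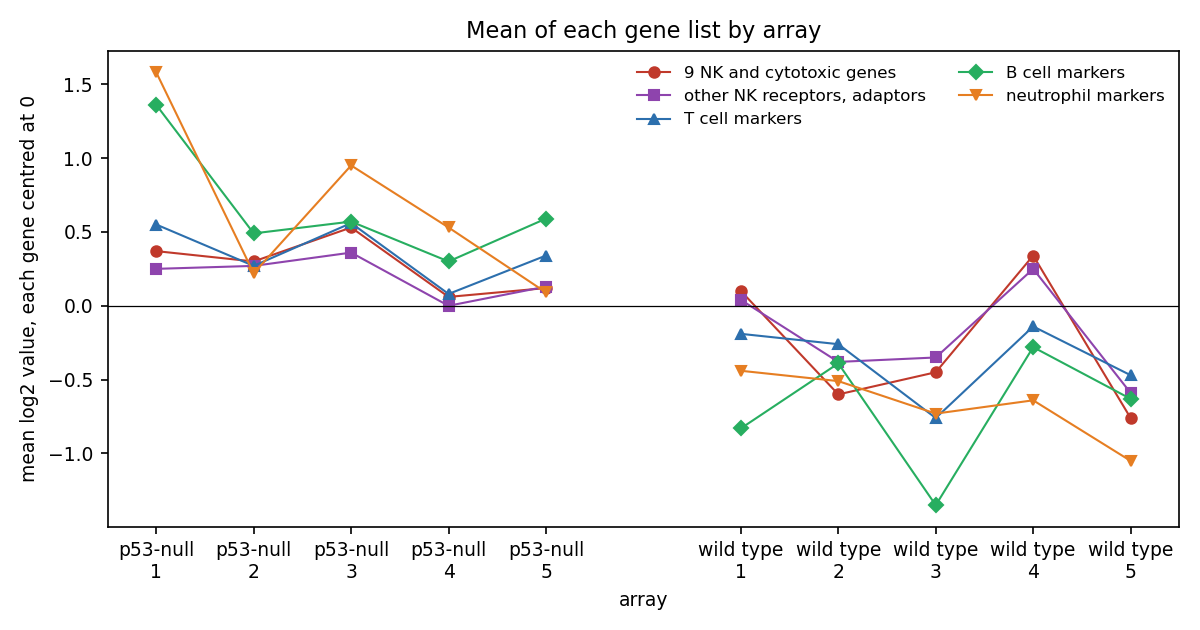
Mean log2 value of the 9 tested NK and cytotoxic genes and of 4 marker lists on each array (vertical axis, each gene centred at 0), p53-null arrays left and wild-type arrays right; lines join arrays for reading only. The T cell, B cell and neutrophil lists lie above 0 on all p53-null arrays and below 0 on all wild-type arrays, whereas the NK and cytotoxic genes reach 0.34 on wild-type array 4.

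Of 29 other NK receptors and adaptors, 26 were tested and 24 had a positive difference, against 56.3% of all genes tested. The median was 0.47, and 3 (11.5%) were called higher, against 4.58% of all genes tested. Those 3 were Cd226 (0.88 ± 0.14, limma adjusted p = 0.0141), an activating receptor also found on T cells, Hcst (0.88 ± 0.14, limma adjusted p = 0.0152), the DAP10 adaptor of NKG2D, and Klra17 (1.09 ± 0.24, limma adjusted p = 0.0327). Klra17, known mainly from plasmacytoid dendritic cells, was well above background on 5 p53-null and 2 wild-type arrays, so it was tested because of the genotype in which it is bright, and the size of its difference rests on dim wild-type values. The other Cd226 probes gave 0.43 to 0.72. Receptors close to those in the set gave Klrc1 0.58 ± 0.24, Klrk1 0.48 ± 0.23 and Tyrobp, the DAP12 adaptor, 0.08 ± 0.17, none past the test. Averaged over the list, p53-null arrays stood at 0 to 0.36 and wild-type arrays at -0.59 to 0.25, with wild-type arrays 1 and 4 again the highest of their group.

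The other granzymes measured were not called on all 10 arrays. Gzmm, a granzyme of NK and innate-like T cells, gave 0.47 ± 0.14 (limma adjusted p = 0.0698), with -2.12 to -1.86 on p53-null arrays and -2.74 to -1.97 on wild-type arrays. Gzmc gave 0.81 ± 0.37 and Gzmd 0.13 ± 0.17, and Gzme, Gzmf, Gzmg and Gzmn were too dim to test. Without wild-type array 5, which stood high for this list, Gzmm (0.60 ± 0.073, limma adjusted p = 0.000942) and Gzmc (1.16 ± 0.21, limma adjusted p = 0.004) were called higher. That fit called 17.1% of all genes tested higher, against 4.58% on all arrays. Gzmc was well above background on 3 arrays of each genotype.

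Genes that process and release granules were split. Of 13 tested, 4 were called higher and 1 lower, with a median of 0.30. The share of all genes tested was 4.58% called higher and 7.47% called in either direction. Ctsc, the peptidase that activates granzymes and also neutrophil proteases, fell (-0.63 ± 0.12, limma adjusted p = 0.0245), with 2.85 to 3.14 on p53-null arrays and 3.27 to 3.94 on wild-type arrays. Its inhibitor Cst7 (1.24 ± 0.29), the lymphocyte cathepsin Ctsw (0.72 ± 0.18) and Sh2d1a, the SAP adaptor of SLAM receptors (1.01 ± 0.26), rose, with limma adjusted p = 0.0353, 0.047 and 0.0476. Unc13d, which primes granules for fusion, also rose (0.53 ± 0.14, limma adjusted p = 0.0498). The granule proteoglycan Srgn gave -0.01 ± 0.14. Of 4 tested serpins that inhibit granzymes or related proteases, 0 were called by limma; Serpinb9, the granzyme B inhibitor, gave -0.18 ± 0.11 and Serpinb1a 0.35 ± 0.15.

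Of 15 genes of the cytokine axis and homing receptors of NK cells, which include cytokines such as Il15, 6 (40%) were called higher. In this list 0 were called lower, and all 15 differences were positive, with a median of 0.71. By comparison, 4.58% of all genes tested were called higher and 56.3% had a positive difference. The genes called higher included Il2rb, the chain shared by the IL-2 and IL-15 receptors (0.90 ± 0.16, limma adjusted p = 0.0199). The chemokine receptors Cxcr3 (1.06 ± 0.19, limma adjusted p = 0.0199) and Cx3cr1 (1.14 ± 0.24, limma adjusted p = 0.0283) were among them too. A second Cx3cr1 probe gave 0.49 ± 0.32. Il12rb1 (1.07 ± 0.25, limma adjusted p = 0.0353) and S1pr5, which guides NK cell exit from bone marrow (0.97 ± 0.23, limma adjusted p = 0.0382), also rose, while Il15 (0.24 ± 0.10) and Il18rap (0.71 ± 0.20) did not pass. T cells and monocytes carry several of these receptors as well.

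Of 11 transcription factors tested, 3 (27.3%) were called higher and 0 lower, against 4.58% of all genes tested called higher. The median of the 11 was 0.34. Tbx21, which encodes T-bet, rose by 0.73 ± 0.18 (limma adjusted p = 0.0452). Ikzf3 (1.44 ± 0.22, limma adjusted p = 0.0126), a lymphoid factor prominent in B cells, and Ets1 (0.54 ± 0.099, limma adjusted p = 0.0205) rose as well; the other Ets1 probes gave 0.25 to 0.39. Nfil3 (-0.42 ± 0.18), Id2 (-0.14 ± 0.11) and Runx3 (0.51 ± 0.48) did not pass. Among 9 death ligands and effector cytokines, Lta (1.25 ± 0.28, limma adjusted p = 0.0327) and Ifng (0.64 ± 0.16, limma adjusted p = 0.0449) rose. All 9 differences were positive, as were 56.3% of those of all genes tested. Fasl gave 0.63 ± 0.19, Tnf 0.74 ± 0.25 and Ccl3 0.01 ± 0.23.

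Markers of T cells, B cells and neutrophils were also higher in p53-null lung. For the counts on all 10 arrays that follow, the share of all genes tested called higher was 4.58%. All 14 T cell markers, which include genes that NK cells also express, were bright enough to test, and 9 were called higher. They were led by the kinase Zap70 (0.80 ± 0.12, limma adjusted p = 0.0115). Next were the receptor chains Cd3g (1.14 ± 0.19, limma adjusted p = 0.0162), Cd247 (0.93 ± 0.16, limma adjusted p = 0.0168) and Cd3d (1.0 ± 0.20, limma adjusted p = 0.0246). The T cell markers that did not pass ran from -0.17 ± 0.23 (Themis) to 0.67 ± 0.25 (Cd5), with Cd4 at 0.18 ± 0.26. The T cell list averaged 0.08 to 0.56 on p53-null arrays and -0.76 to -0.14 on wild-type arrays. The B cell list, with 7 of 8 higher, averaged 0.30 to 1.36 on p53-null arrays and -1.35 to -0.28 on wild-type arrays, and the neutrophil list, with 7 of 10 higher, 0.09 to 1.58 on p53-null arrays and -1.05 to -0.44 on wild-type arrays. Unlike these lists, the 9 NK and cytotoxic genes overlapped between genotypes, at 0.06 to 0.53 in p53-null lung and -0.76 to 0.34 in wild-type lung. Without wild-type array 5, which left 17.1% of all genes called higher, no call named for any of these lists was lost. The counts called higher were then 3 of 26 for the other NK receptors and 5 of 13 for granule processing. They were 9 of 15 for the cytokine axis and homing receptors and 4 of 11 for transcription factors. Death ligands and cytokines had 3 of 9, T cells 9 of 14, B cells 8 of 8 and neutrophils 7 of 10. Whether the lists differ in size of change was not tested, nor was the part of T cells in the values of Prf1, Nkg7 and Klrg1, which T cells share.

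**Figure D4:**
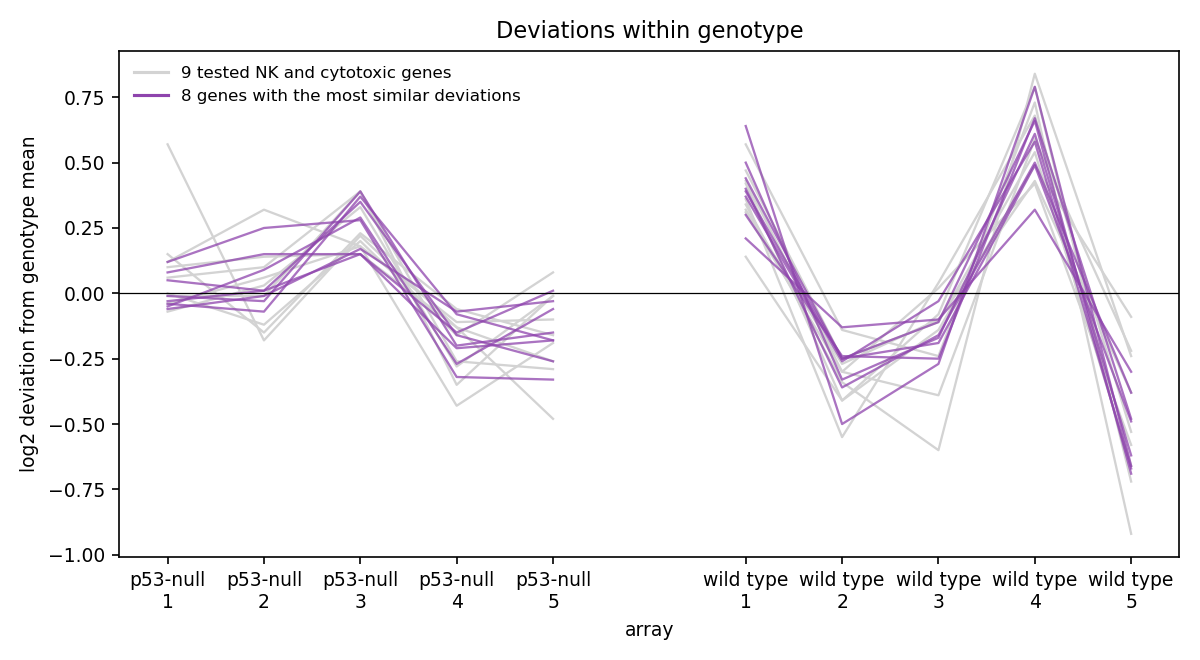
Deviation of log2 intensity from the mean of the array's own genotype (vertical axis) for the 9 tested genes in grey and the 8 genes whose deviations were most similar to their average in purple, p53-null arrays left and wild-type arrays right. All 8 purple genes, 6 of them receptors of the NK gene cluster, are highest on wild-type array 4 and lowest on wild-type array 5, and the grey genes spread more widely around them.

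The genes whose array-to-array deviations were most like the average of the 9 were mostly NK receptors. After the mean of each genotype was taken away, 16226 genes were compared over the 10 arrays. The 8 highest Pearson correlations were those of Klra8 (0.985), Klra23 (0.978), Klra6 (0.977), Rab37 (0.971), St3gal4 (0.963), Klrb1a (0.961), Klrk1 (0.954) and Klre1 (0.947). These are descriptions over 10 arrays that share depth and hybridisation, with the largest deviations on wild-type arrays. Klra8, Klra23 and Klra6 belong to the Ly49 receptors, whose genes are near copies of each other, so a probe named for a given member may read several. Klrk1 encodes NKG2D and Klre1 a lectin-like receptor of NK cells.

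None of these 8 genes passed the test between genotypes. Klra8 read -1.27, -1.31, -0.97, -1.49 and -1.58 on p53-null arrays 1 to 5, against -1.33, -2.16, -2.0, -1.22 and -2.44 on wild-type arrays 1 to 5. As with Klrd1 and Eomes, wild-type arrays 1 and 4 lay inside the p53-null range and the other 3 below it. Klra8 differed by 0.50 ± 0.24 (limma adjusted p = 0.21). Rab37 had the smallest adjusted p of the 8, with a difference of 0.78 ± 0.24 (limma adjusted p = 0.0722), and Klre1 a difference of 0.32 ± 0.22 (limma adjusted p = 0.389).

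Upstream sequence was read from RefSeq (GRCm38.p6) for 8 of the 10 genes, and searched on both strands over the 250 bases before the start for the T-box core AGGTGT, the site type of Eomes and T-bet, the Runx core TGTGGT and the STAT pattern TTCNNNGAA. The last 150 bases before the start are shown for Prf1, which passed the test, Nkg7, whose genotypes did not overlap, and Gzma and Gzmb, which did not pass, since all 4 are granule genes and were highest on the same wild-type arrays. Capitals mark the T-box and Runx cores, with ACACCT and ACCACA where they lie on the other strand.
Prf1 upstream window (chr10:61297686-61297835, GRCm38.p6, plus strand): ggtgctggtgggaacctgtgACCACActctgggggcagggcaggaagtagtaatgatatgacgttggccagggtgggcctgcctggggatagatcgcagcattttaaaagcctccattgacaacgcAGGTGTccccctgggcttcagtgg
Nkg7 upstream window (chr7:43436988-43437137, GRCm38.p6, plus strand): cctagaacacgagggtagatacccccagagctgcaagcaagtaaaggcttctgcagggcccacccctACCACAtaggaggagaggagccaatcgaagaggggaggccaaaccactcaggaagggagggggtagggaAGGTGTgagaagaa
Gzma upstream window (chr13:113100982-113101131, GRCm38.p6, minus strand): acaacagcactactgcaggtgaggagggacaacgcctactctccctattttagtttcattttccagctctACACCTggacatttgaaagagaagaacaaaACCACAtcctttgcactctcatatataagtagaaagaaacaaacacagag
Gzmb upstream window (chr14:56262335-56262484, GRCm38.p6, minus strand): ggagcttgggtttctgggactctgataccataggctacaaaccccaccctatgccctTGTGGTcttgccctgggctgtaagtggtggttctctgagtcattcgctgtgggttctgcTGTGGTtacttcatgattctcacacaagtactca

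The T-box core was present upstream of 4 of 8 genes (Prf1, Nkg7, Gzma and Gzmk), and in 11.8% of 32851 windows of the same length. The Runx core was present upstream of 6 of 8 (Prf1, Nkg7, Gzma, Gzmb, Ncr1 and Klrb1c), and in 14.0% of windows. The STAT pattern was found in 1 of 8, Nkg7, and in 7.02% of windows. Prf1 and Nkg7 both held a Runx core on the minus strand and a T-box core on the plus strand close to the start, at -24 and -14 bases, while Gzmb held the Runx core at -93 and -34 bases and no T-box core in these 250 bases. These matches describe letters in the windows and show no binding.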

How the data were processed

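Whole-lung RNA, labelled with Cy3, was measured on Agilent arrays of 1 colour, per the labels' protocols, and the submitters' processing notes name Agilent Feature Extraction 9.5. The intensity the authors deposited had its background subtracted and spatial trend removed, per the file headers; the deposited series table held identical values (largest difference 0).

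Here the log2 of the deposited intensity was centred on each array's 75th percentile, taken over 43379 non-control spots. Outlier-flagged spots were dropped, repeated spots averaged, and a gene was read by its brightest probe on average. Probe coordinates are on mm7, from the files; upstream windows are from RefSeq. Current names came through accessions (22951 of 41174 probes), symbols (6659) or synonyms (3109), and 8455 probes kept the file's name. Genotypes were compared with limma 3.58.1 (lmFit, eBayes; R 4.3.3) and Benjamini-Hochberg adjustment; the code was tested on simulated data.

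The genes and all lists were chosen with earlier results of these data known, so their directions are not independent evidence. The rule for naming covered all 10 genes, Trp53, from each of 19 lists up to 4 called members in order of p (2 members in lists with no call) and the 8 genes of most similar deviations. An item covered by it is not reported here. Other list members (Unc13d, Il12rb1, S1pr5, Il15, Il18rap, Klrc1, Klrk1, Tyrobp, Gzmd, Fasl, Tnf, Ccl3, Srgn, Nfil3, Id2, Runx3, Gata3, Il13, Il1rl1, Cd4, Cd5 and Themis) were named after their values were seen. Values of lists and Trp53 without wild-type array 5 were added at that stage. Alternatives covered background, scaling, filter, probe choice, variance model, array weights, slide, scan day, replicate number, threshold and leaving out each array. Same-numbered arrays of the 2 genotypes had correlations of -0.22 to 0.000109 between their deviations, so the numbers were not treated as pairs. The series' design calls the arrays biological replicates.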

Additional observations from a re-analysis of the deposited data

Results flagged for a closer look

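Groups of 5 arrays were examined for the 12 probes of the NK and cytotoxic genes, the mean of the tested ones and 19 lists. The rule flags about 5% of groups of independent, normally spread values. The groups here share arrays, so that share is no measure of chance for them. In 7 of the 64 groups a single array stood far from the rest. No probe of the 10 NK and cytotoxic genes was among them. The other granzymes averaged 0.59 on wild-type array 5, where the nearest wild-type array was at -0.42. The granzyme inhibitors averaged 0.36 on p53-null array 1, with the next p53-null array at 0. Type 2 innate lymphoid cell markers averaged 0.39 on wild-type array 5, with the next wild-type array at -0.19. B cell markers averaged 1.36 on p53-null array 1, with the next p53-null array at 0.59. Skeletal muscle markers averaged 3.96 on wild-type array 2, with the next wild-type array at -1.03. Squamous epithelial markers averaged 3.46 on p53-null array 5 and 4.61 on wild-type array 2, with the nearest arrays of those groups at -0.50 and -0.52.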

How the results depend on the processing

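Prf1 and Klrg1 kept their call with normexp background, the series table, quantile normalization, the mean of a gene's probes, slide as a random block, array weights, the eBayes trend and a filter of all 10 arrays; the last 3 also called Nkg7. The count of the 9 genes called was 0, against 2, with median scaling, no filter, slide as a fixed block, slide number range as a block, scan day as a block, the replicate block and a threshold of 0.01, and ran from 0 to 3 over fits that left out 1 array. For all genes, the count called was 1578, and 581 with median scaling, 539 with no filter, 998 with probe means, 6504 with array weights, 0 with slide as a fixed block, 697 with slide number range, 322 with scan day, 26 with the replicate block and 56 at 0.01; with 1 array left out it ran from 192 (without p53-null array 3) to 6617 (without wild-type array 5). Under the replicate block Prf1 and Klrg1 were 0.83 ± 0.21 and 0.75 ± 0.21 (limma adjusted p = 0.17 and 0.184). The fixed slide block turned Gzma (-0.37), Gzmb (-0.22), Ncr1 (-0.12), Klrb1c (-0.31), Klrd1 (-0.09) and Eomes (-0.03) and moved the median to -0.09, resting on 1 array of each genotype; array weights turned Gzmb to -0.03. Under the fixed slide block each difference is p53-null array 2 minus wild-type array 4. What lies behind the values of those arrays, and the turn of Gzmb under array weights, was not tested. Further alternatives were chosen after seeing the data. With the GC trend of probes removed, 0 of the 9 and 227 of all genes were called, and 77.1% of calls were higher, against 61.3%; the median of all genes was -0.051, against 0.05. Without the 3 arrays high in skeletal muscle markers, 0 and 10 were called; in the lower slide number range, 0 and 16; in the higher, which holds 1 p53-null array, 0 and 0 (limma, 2596 genes at an unadjusted p under 0.05). All 9 differences stayed positive in these 4, and in every scaling and filter alternative. Signal over background limits Gzmk, and the second Klrb1c probe in wild-type lung.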

Other observations

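Ligands that NK receptors read on other cells were split. Among all genes tested, 7.47% were called in either direction. Of 11 tested, H2-T23, which encodes Qa-1, the ligand of the CD94 receptor (0.52 ± 0.11, limma adjusted p = 0.031), and the class I gene H2-K1 (0.30 ± 0.077, limma adjusted p = 0.046) rose in p53-null lung. Pvr, the ligand of Cd226, fell (-0.51 ± 0.10, limma adjusted p = 0.0254), with 2.37 to 2.52 on p53-null arrays and 2.76 to 3.30 on wild-type arrays, while Cd226 itself rose by 0.88 ± 0.14. The other 4 Pvr probes gave -0.15 to -1.0, and 1 of them passed (limma adjusted p = 0.0204 over all probes tested). Of 5 tested mast cell and basophil markers, which include other granule proteases, 0 were called by limma, and Cma1 gave 0.44 ± 0.20 (limma adjusted p = 0.187) and Cpa3 0.29 ± 0.27 (limma adjusted p = 0.529).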
